A study of Mus musculus with 23 samples.

Results

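Transcripts of 49 genes of the lysosome and its proton pump were followed in cells sorted as macrophages from mouse hearts after myocardial infarction. Markers of monocytes and other cell types were also read in these cells, as given below. The genes were chosen by name: 15 subunits and accessory proteins of the vacuolar proton pump, 6 proteins of the lysosomal membrane, 3 cation channels, 7 genes of lysosomal lipid handling, 12 glycosidases and sulfatases, 3 genes of protein turnover and granulins, and 3 transcription factors. The choice was made with earlier results of these data known. Each name was found once among the 54532 genes of the deposited count table, and all 49 were among the 16545 genes that passed the low-count filter and were tested. RNA came from Ly6G-negative, CD11b-positive cells sorted with magnetic beads from hearts of C57BL/6 mice, and poly(A) libraries were sequenced. All animals carried Smad7 alleles flanked by loxP sites. The controls (S7fl/fl) had no Cre, and the MyS7KO mice (LyzM-Cre;Smad7fl/fl) also carried Cre under the lysozyme M promoter, so only cells in which that promoter has been active can lose Smad7, an inhibitor of TGF-beta signalling. Hearts were taken at baseline (3 S7fl/fl and 3 MyS7KO libraries), 3 days after permanent ligation of the left anterior descending coronary artery (5 and 5) and 7 days after it (3 and 4). The comparisons ask how the genes changed with time after the infarct in each genotype, and whether the genotypes differed at any time. The age of the mice, and whether each library came from a separate heart, are not given in the sources used here, so the p-values speak only of the spread among the libraries, which may be technical.

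Lysosomes break down what a macrophage takes up, including dead cells, lipoproteins and matrix. The vacuolar proton pump (V-ATPase) acidifies them: its V1 sector, on the cytosolic side, hydrolyses ATP, and its V0 sector, in the membrane, carries the protons. Soluble hydrolases then cut proteins, glycans, glycolipids and cholesterol esters at acid pH. The transcription factors TFEB, TFE3 and MITF bind the CLEAR element, a motif built around CACGTG in the promoters of many lysosomal genes, and are controlled largely by whether they are held in the cytoplasm.

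The libraries held 15.5 M to 23.9 M counts on genes. Levels below are CPM (read counts scaled to library size, with TMM factors), or FPKM where genes are compared per length, as single libraries in replicate order or as mean ± SD. Changes are log2 differences ± standard error from edgeR's quasi-likelihood test, called at a Benjamini-Hochberg adjusted p under 0.05 over all genes tested. Smad7 read 53.1 to 61.2 CPM in S7fl/fl and 19.7 to 48.7 in MyS7KO libraries at baseline, 30.4 to 42.0 and 10.5 to 19.9 at day 3, and 57.4 to 70.2 and 16.04 to 33.4 at day 7. The genotypes did not overlap at any of these times, but the difference in Smad7 did not pass (adjusted p = 0.999, 0.11 and 0.0702), and the deleted part of the gene is not stated. Lyz2, the gene whose promoter drives the Cre, was lower in MyS7KO at each time (log2 -0.90, -0.92 and -0.97, adjusted p = 0.019, 0.000229 and 0.00177). At day 7 the effects of sex and genotype cannot be told apart, since reads of Xist marked every MyS7KO library and Y-linked reads every S7fl/fl library. At baseline Xist marked S7fl/fl replicates 1 and 2 and MyS7KO replicate 1, and Y-linked reads the other libraries. At day 3 Xist marked S7fl/fl replicates 4 and 5 and MyS7KO replicates 2, 4 and 5, and mainly Y-linked reads the other libraries. Sex was therefore also unbalanced between day 7 and both earlier times within each genotype, in opposite directions in the 2 genotypes. The main comparisons with time carry no term for it.

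The cells changed in other ways between the times. All 10 macrophage markers were read in every group, with a summed level in S7fl/fl of 11125 to 12806 CPM at baseline, 8598 to 10004 at day 3 and 13771 to 15036 at day 7. Of these 10, 3 rose and 5 fell at day 3, and 6 rose and 1 fell at day 7. All 8 markers of resident cardiac macrophages fell at day 3 in both genotypes: their summed level was 4358 to 5229 CPM in S7fl/fl at baseline, 1101 to 1756 at day 3 and 1002 to 1292 at day 7. Markers of classical monocytes rose at day 3, 8 of 8 in S7fl/fl and 7 of 8 in MyS7KO. At day 7, 3 of 8 rose in S7fl/fl and 4 of 8 in MyS7KO, and 0 fell. Their sum in S7fl/fl was 550 to 676 CPM at baseline, 4416 to 9312 at day 3 and 2404 to 4552 at day 7. Markers of endothelial cells summed to 1749 to 2484 CPM at baseline, 338 to 809 at day 3 and 272 to 563 at day 7 in S7fl/fl, and those of fibroblasts to 711 to 1062, 248 to 1091 and 1286 to 3401. All 7 endothelial markers fell at both times in S7fl/fl. Of the 8 fibroblast markers 0 rose and 4 fell at day 3, and 4 rose and 3 fell at day 7. The 10 neutrophil markers summed to 118 to 129 CPM in S7fl/fl at baseline, 124 to 213 at day 3 and 141 to 197 at day 7. Of the 9 that were tested, 1 rose and 4 fell at day 3, and 3 rose and 4 fell at day 7. Ly6g, the marker used in the sort, was at 0 in MyS7KO at day 3 and in both groups at day 7. All 9 cardiomyocyte, 5 mural, 6 NK cell and 6 B cell markers fell at day 3 in S7fl/fl. Of 7 dendritic cell markers 3 rose and 4 fell there. Beside these counts, 29.9% of all genes tested rose and 34.1% fell at day 3 in S7fl/fl, and 24.8% and 25.4% at day 7. The shares in MyS7KO were 30.7% and 35.2% at day 3, and 22.2% and 21.8% at day 7. The part of these shifts in the changes of the lysosomal genes was not tested, and in such bulk RNA fewer cells of a type and less RNA per cell cannot be told apart.

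Most of the lysosomal genes rose after the infarct and stayed up. In S7fl/fl cells 40 of the 49 rose at day 3 (29.9% of all genes tested rose) and 3 fell (34.1% of all genes fell). At day 7 41 rose (24.8% of all genes) and 1 fell (25.4% of all genes). The median change over the 49 was 0.76 at day 3 and 0.81 at day 7 on the log2 scale, where the medians over all genes tested were -0.06 and -0.02. Their share of all counts was 1.40% ± 0.109 (SD, n = 3) at baseline, 2.57% ± 0.156 (n = 5) at day 3 and 2.53% ± 0.352 (n = 3) at day 7. In MyS7KO cells 38 rose and 3 fell at day 3 (30.7% and 35.2% of all genes), and 38 rose and none fell at day 7 (22.2% and 21.8% of all genes). Their share of counts was 1.35% ± 0.0644 (n = 3), 2.61% ± 0.0535 (n = 5) and 2.61% ± 0.219 (n = 4).

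The same genes rose in both genotypes for the most part. At day 3, 38 genes rose in both (26.3% of all genes did) and 3 fell in both (29.9% of all genes), namely Laptm4a, Smpd1 and Ids. At day 7, 36 rose in both (19.3% of all genes). In all, 34 of the 49 rose at both times in both genotypes (15.9% of all genes did), while Mcoln1, Neu1 and Tfe3 were called in none of these comparisons. The counts of rising genes include Mcoln3, which held 6 counts in S7fl/fl and 3 in MyS7KO at baseline. Mcoln3 passed the low-count filter only through the later libraries, where it was high. The heat map of single libraries shows the change as a step between the 6 baseline libraries and the 17 libraries taken after the infarct.

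**Figure D1:**
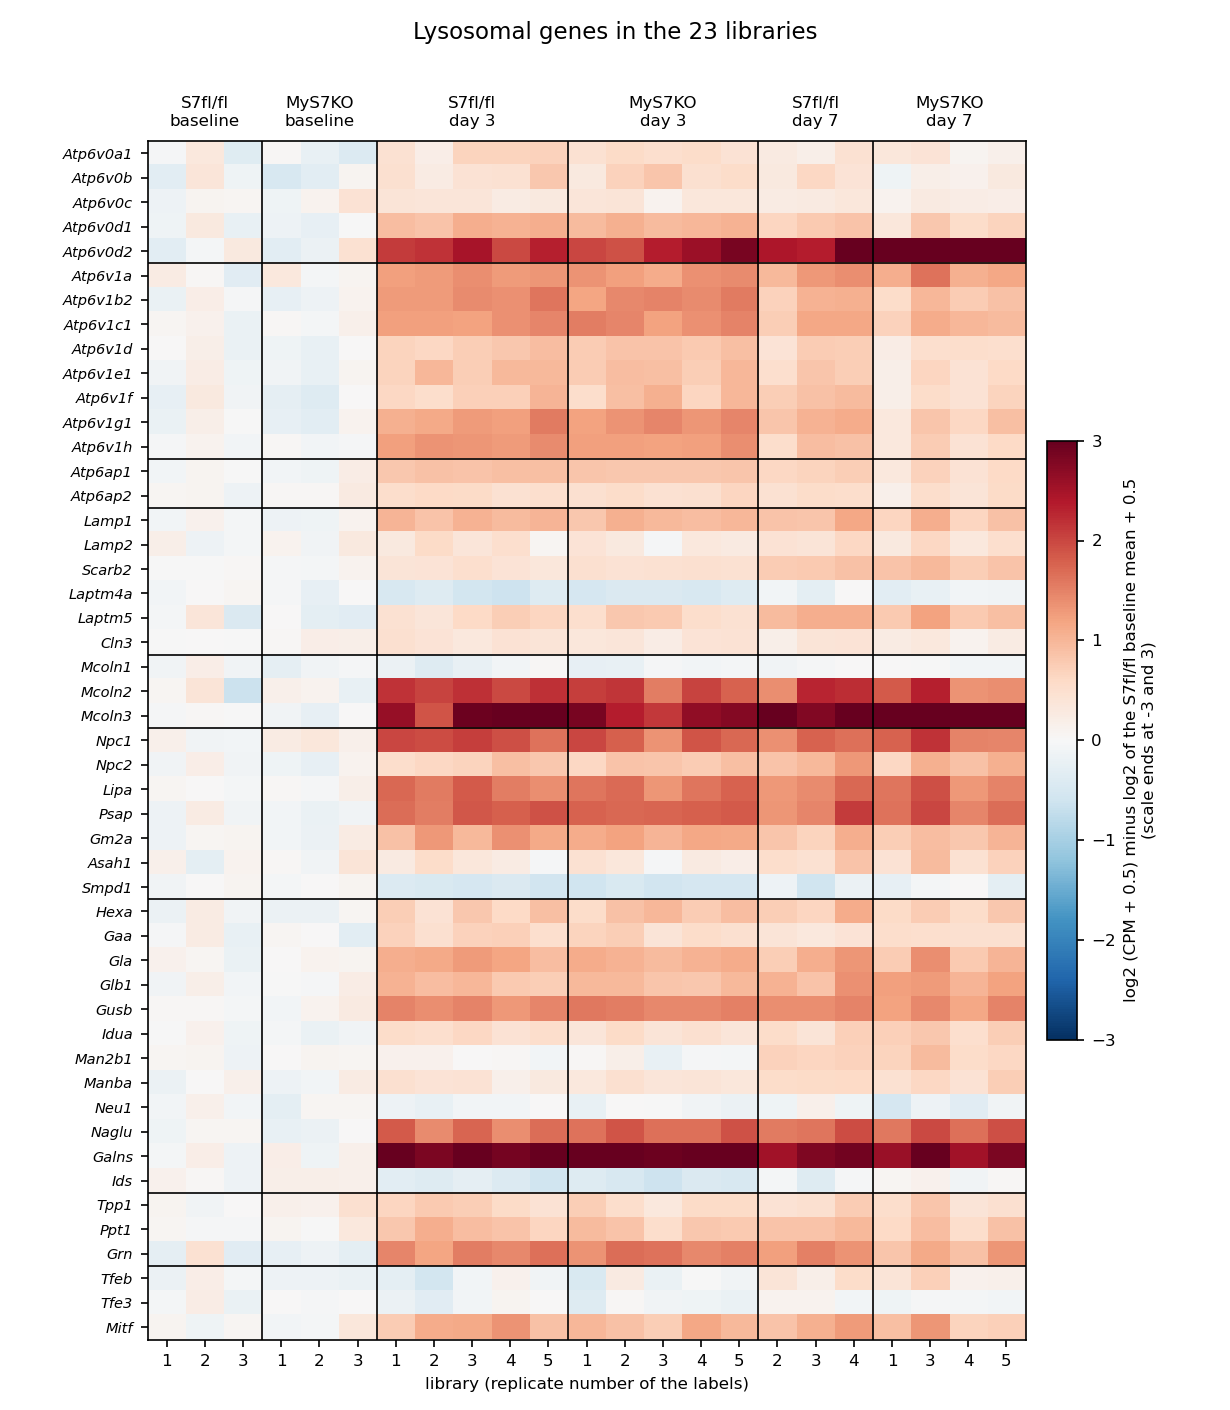
Level of each of the 49 genes (rows, grouped by role with lines between the groups) in each of the 23 libraries (columns, by group and replicate number), as log2 of CPM + 0.5 minus log2 of the S7fl/fl baseline mean + 0.5. Red is higher and blue lower than that mean, and colours saturate at -3 and 3. The libraries after infarction are red for most rows, with Laptm4a, Smpd1 and Ids blue at day 3 and Mcoln1, Neu1 and Tfe3 near white throughout.

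The promoters of some of these genes show the letters that TFEB and its relatives bind. In the RefSeq promoter table (GRCm38.p6, 250 bases before to 50 after each gene's start), 41 of the 49 genes matched by symbol. CACGTG stood in 11 of the 41 (26.8%) and in 8.09% of all 27025 genes of the table. The longer TCACGTGA, which contains it, stood in 5 (12.2%, against 1.12% of all genes): Atp6v0d1, Atp6v1a, Cln3, Mcoln1 and Gla. With G before and C after it, 10 letters in all, it stood in Cln3 alone (0.37% of all genes). These motifs read the same on both strands and each longer motif contains the shorter. Stretches of 100 bases upstream of the start are shown for 4 of those 5 genes (the site of Atp6v0d1 lies 3 bases before its start) and for Lamp1, which held the most copies, 4. CACGTG is in capitals, and TCACGTGA where the full 8 letters match.
Cln3, chr7:126583316-126583415, minus strand: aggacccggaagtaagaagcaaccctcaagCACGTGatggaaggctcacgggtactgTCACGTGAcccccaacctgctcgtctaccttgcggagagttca
Mcoln1, chr8:3500418-3500517, plus strand: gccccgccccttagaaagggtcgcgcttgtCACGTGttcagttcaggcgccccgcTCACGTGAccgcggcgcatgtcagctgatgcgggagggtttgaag
Lamp1, chr8:13159061-13159160, plus strand: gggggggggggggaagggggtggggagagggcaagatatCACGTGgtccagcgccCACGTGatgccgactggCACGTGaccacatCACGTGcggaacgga
Atp6v1a, chr16:44139321-44139420, minus strand: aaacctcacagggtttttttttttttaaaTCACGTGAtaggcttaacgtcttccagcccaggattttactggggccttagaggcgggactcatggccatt
Gla, chrX:134601156-134601255, minus strand: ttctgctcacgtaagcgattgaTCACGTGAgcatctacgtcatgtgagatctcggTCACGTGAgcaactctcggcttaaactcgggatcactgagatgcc
Of the 11 genes with CACGTG, 10 rose at day 3 in S7fl/fl cells, with a median log2 change of 0.98 over the 11, and of the 30 without it 23 rose, with a median of 0.60. At day 7 10 of 11 and 23 of 30 rose, with medians of 0.96 and 0.68. In MyS7KO 10 of 11 with the motif and 21 of 30 without it rose at day 3 (medians 0.99 and 0.68), and 8 of 11 and 22 of 30 at day 7 (0.88 and 0.59). Mcoln1 was the gene with the motif that was not called at day 3. A match of letters is a description of the sequence and does not show that a factor was bound, and no difference between the genes with and without the motif was tested.

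All 15 pump genes rose in S7fl/fl cells at day 3 (29.9% of all genes did) and 14 did at day 7 (24.8% of all genes). In MyS7KO cells 14 and 13 of them rose (30.7% and 22.2% of all genes). Together the 15 took 0.221% ± 0.0179 (SD, n = 3) of counts at baseline, 0.357% ± 0.0197 (n = 5) at day 3 and 0.312% ± 0.0181 (n = 3) at day 7 in S7fl/fl. The 8 genes of the V1 sector, which turns ATP into rotation, rose in all 4 comparisons with baseline (15.9% of all genes did). The median change over the 8 was 1.29 at day 3 and 0.90 at day 7 in S7fl/fl. Atp6v1h, a regulatory subunit, read 58.6, 64.3 and 57.1 CPM in the 3 S7fl/fl baseline libraries, 142, 154, 150.2, 147 and 162 in the 5 day 3 libraries and 87, 115 and 110.2 in the 3 day 7 libraries. Its day 3 and day 7 levels overlapped neither baseline nor each other (log2 1.33 ± 0.103, adjusted p = 3.15e-10 at day 3, and log2 0.79 ± 0.111, adjusted p = 4.19e-06 at day 7). Atp6v1c1, a subunit that joins the stalks to V0, read 77.9, 82.7 and 64.9 CPM at baseline, 178, 176, 174, 194 and 207 at day 3 and 126, 168 and 169 at day 7. Atp6v1c1 changed by 1.31 ± 0.118 (adjusted p = 3.34e-09) at day 3 and by 1.04 ± 0.127 (adjusted p = 8.17e-07) at day 7. Atp6v1a, the catalytic subunit, read 279, 240.3 and 187 CPM at baseline and 464, 581 and 623 at day 7, again without overlap (log2 1.24 ± 0.156, adjusted p = 1.12e-06). In MyS7KO cells Atp6v1b2, the partner of Atp6v1a in the ATP-binding ring, went from 147, 156 and 187 CPM to 399, 476, 487, 464 and 511 at day 3 (log2 1.52 ± 0.131, adjusted p = 1.36e-09).

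The V0 sector was less even. Its 5 genes rose at day 3 in S7fl/fl, from 0.33 for Atp6v0c, the proton-binding ring subunit, to 2.36 for Atp6v0d2 on the log2 scale. Reads of Atp6v0c may be shared with its processed copies Atp6v0c-ps1 and Atp6v0c-ps2, so its value is uncertain. In S7fl/fl at day 7 the call of Atp6v0c (log2 0.29, adjusted p = 0.0344) ended without baseline replicate 1 or day 7 replicate 3 or 4, and with sex as a covariate (adjusted p = 0.112). That of Atp6v0b (log2 0.45, adjusted p = 0.0357) ended without baseline replicate 1 or 3 or day 7 replicate 3 or 4, with an adjusted p of up to 0.143. The day 3 call of Atp6v0b ended without baseline replicate 1 (0.41, adjusted p = 0.0543). The d subunit, which couples the ring to the stalk, exists in 2 forms. Atp6v0d1, the form of most tissues, read 114, 152 and 107 CPM at baseline, 236, 225, 265, 258 and 265 at day 3 and 195, 216 and 226 at day 7 in S7fl/fl. Atp6v0d1 changed by 1.01 ± 0.114 (adjusted p = 9.46e-08) at day 3 and by 0.77 ± 0.124 (adjusted p = 2.49e-05) at day 7. Atp6v0d2, known from osteoclasts and macrophages, read 3.02, 3.68 and 4.87 CPM at baseline, 18.3, 19.1, 23.6, 16.6 and 21.4 at day 3 and 22.9, 21.7 and 54.4 at day 7. Atp6v0d2 changed by 2.36 ± 0.34 (adjusted p = 5.88e-06) at day 3 and by 3.10 ± 0.366 (adjusted p = 1.27e-06) at day 7. Replicate 4 held the highest of the day 7 levels. Per length, Atp6v0d1 stayed the more abundant form, at 68.7 FPKM against 1.40 for Atp6v0d2 at baseline and 137 against 7.18 at day 3. The a1 subunit Atp6v0a1 rose at day 3 (0.55 ± 0.138) and did not pass at day 7 in S7fl/fl (log2 0.31 ± 0.152, adjusted p = 0.0968), although it did without baseline replicate 2 (log2 0.50, adjusted p = 0.0102) or with sex as a covariate (0.48, adjusted p = 0.00983). In MyS7KO Atp6v0a1 passed at day 7 (log2 0.45, adjusted p = 0.0145). That call ended with sex as a covariate (0.30, adjusted p = 0.0929) or without baseline replicate 3 (0.35, adjusted p = 0.0831).

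The accessory proteins also rose. Atp6ap1, which helps to assemble V0, went from 216, 245 and 227 CPM to 402, 425, 414, 429 and 426 at day 3 and 354, 364 and 381 at day 7 in S7fl/fl. Atp6ap1 changed by 0.87 ± 0.0931 (adjusted p = 3.93e-08) at day 3 and by 0.68 ± 0.101 (adjusted p = 1.09e-05) at day 7. Atp6ap2, known also as the prorenin receptor, read 221, 222 and 189 CPM at baseline, 304, 317, 314, 290.1 and 298 at day 3 and 289, 309 and 306 at day 7. Atp6ap2 changed by 0.53 ± 0.0934 (adjusted p = 3.34e-05) at day 3 and by 0.52 ± 0.103 (adjusted p = 0.000251) at day 7. Neither gene's baseline levels overlapped the later ones.

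Between day 3 and day 7 most pump genes fell in MyS7KO cells. Over the 49, rises were near the share of all genes: 11 in MyS7KO (20.5% of all genes) and 6 in S7fl/fl (11.5%). In MyS7KO cells 10 of the 15 pump genes fell between these times and Atp6v0d2 alone rose, and of the other 34 genes 10 rose and 2, Grn and Galns, fell (20.5% of all genes tested rose and 19.1% fell). The fall of Galns (log2 -0.27 ± 0.101, adjusted p = 0.0407) ended in fits without day 3 replicate 1, 2, 4 or 5 or without day 7 replicate 1 or 4, with an adjusted p of up to 0.156. Among the pump genes, the fall of Atp6v1f (log2 -0.37, adjusted p = 0.0298) ended without day 3 replicate 2, 3 or 5 or day 7 replicate 1 or 4, with an adjusted p of up to 0.124. That of Atp6v0b (log2 -0.45, adjusted p = 0.0152) ended without day 7 replicate 1 (-0.38, adjusted p = 0.0659). Both also ended without the libraries with reads of both sexes. In S7fl/fl cells 2 pump genes fell, Atp6v1b2 and Atp6v1h, and 6 other genes rose: Scarb2, Laptm4a, Laptm5, Mcoln3, Man2b1 and Tfeb (10.1% of all genes fell and 11.5% rose). Without day 7 replicate 4 the 6 became 2. In both genotypes 5 genes rose (9.33% of all genes did) and 2 fell (8.6% of all genes). Atp6v1h read 142, 141, 139.8, 141 and 159 CPM at day 3 and 74.9, 103, 81.6 and 91.5 at day 7 in MyS7KO (log2 -0.72 ± 0.0913, adjusted p = 2.09e-06), and in S7fl/fl it also fell (log2 -0.54 ± 0.0997, adjusted p = 0.000441). Atp6v1g1, a stalk subunit, read 193, 212, 231, 208 and 232 CPM at day 3 and 105, 149, 129 and 155 at day 7 in MyS7KO (log2 -0.68 ± 0.123, adjusted p = 0.000126). Atp6v0d1 went from 242, 261, 239, 250.2 and 257 to 156, 217, 184 and 196 CPM (log2 -0.41 ± 0.102, adjusted p = 0.00264) and Atp6v0d2 the other way, from 17, 15.9, 21.9, 25.3 and 30.6 to 63, 72, 52 and 35.7 (log2 1.33 ± 0.267, adjusted p = 0.000517). In S7fl/fl the rise of Atp6v0d2 between these times did not pass (log2 0.74 ± 0.289, adjusted p = 0.0744), but did without day 7 replicate 3 (log2 0.97, adjusted p = 0.0325) and with DESeq2 (0.73, adjusted p = 0.0488). The fall of Atp6v1b2 in S7fl/fl (log2 -0.45 ± 0.125, adjusted p = 0.0111) ended without day 7 replicate 2 (-0.34, adjusted p = 0.103), and with it the count of falling genes went from 2 to 1. Whether the change from day 3 to day 7 differed between the genotypes was tested for each of the 49 genes, and none passed.

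**Figure D2:**
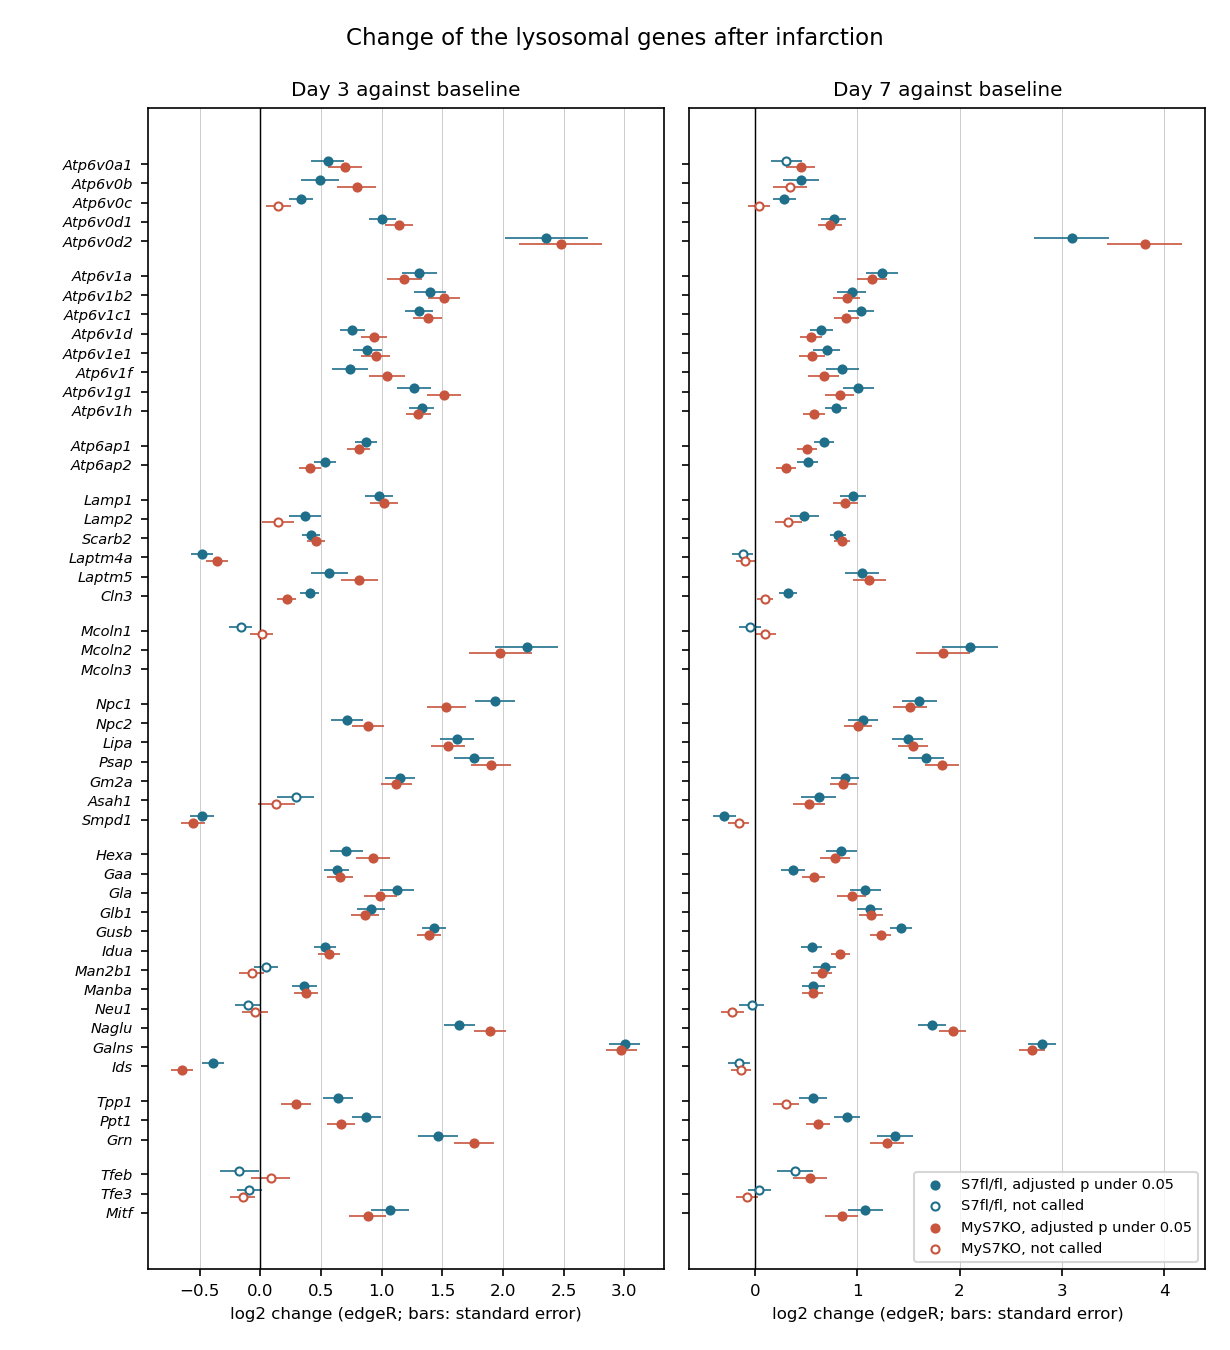
Log2 change of each gene (rows, grouped by role) from baseline to day 3 (left) and to day 7 (right) in S7fl/fl and MyS7KO cells, with standard errors as bars. Filled points passed an adjusted p under 0.05. Mcoln3 is left blank because its baseline libraries held 0 to 2 counts. Points of the 2 genotypes lie close together, and the largest change drawn is that of Atp6v0d2 in MyS7KO at day 7, 3.81.

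Among proteins of the lysosomal membrane, 5 of 6 rose and Laptm4a fell at day 3 in S7fl/fl (29.9% of all genes rose and 34.1% fell). Lamp1, a main glycoprotein of the membrane, read 777, 909 and 795 CPM at baseline, 1673, 1498, 1706, 1585 and 1679.6 at day 3 and 1490.3, 1483 and 1859 at day 7 in S7fl/fl. Lamp1 changed by 0.98 ± 0.119 (adjusted p = 2.52e-07) at day 3 and by 0.96 ± 0.129 (adjusted p = 2.66e-06) at day 7. All later libraries lay above all baseline libraries. Scarb2, the receptor that carries glucocerebrosidase to the lysosome, rose in 2 steps, from 166, 169 and 172 CPM to 221, 226, 239.5, 226 and 214 at day 3 and 285, 293 and 311 at day 7, with no overlap between any of the times (log2 0.42 ± 0.0731, adjusted p = 3.42e-05, and log2 0.40 ± 0.0713, adjusted p = 0.000321 from day 3 to day 7). Laptm4a, a transporter-like membrane protein, fell from 377, 401 and 409.6 CPM to 285, 301, 272, 256 and 303 at day 3 (log2 -0.48 ± 0.0893, adjusted p = 6.52e-05) and read 371, 323 and 399 at day 7. Its rise from day 3 to day 7 (log2 0.36 ± 0.0896, adjusted p = 0.00516) ended without day 7 replicate 4 (0.29, adjusted p = 0.0544). Laptm5, its relative of blood cells, rose instead (0.57 ± 0.151 at day 3 and 1.05 ± 0.167 at day 7). Cln3, the Batten disease protein, rose at both times in S7fl/fl (0.41 ± 0.0771 and 0.32 ± 0.0852), and the call at day 7 ended in a fit of only the groups compared (0.28, adjusted p = 0.0615).

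The mucolipin channels, which release calcium and other cations from the lysosome, went different ways. Mcoln1, the widely expressed channel, read 60.1, 74.6 and 60.9 CPM at baseline, 57.2, 49.5, 55.7, 61.9 and 67.3 at day 3 and 60.5, 63.6 and 65.7 at day 7 in S7fl/fl, and these levels overlapped. Mcoln1 differed from baseline by -0.16 ± 0.0947 (adjusted p = 0.143) at day 3 and -0.04 ± 0.106 (adjusted p = 0.756) at day 7. Without day 3 replicate 5 its day 3 level passed as lower (-0.22, adjusted p = 0.0475). Mcoln2 read 7.19, 9.16 and 4.23 CPM at baseline, 32.5, 29.5, 33, 28.4 and 32.9 at day 3 and 18.7, 35.2 and 33.9 at day 7, so that every later library exceeded every baseline library. Mcoln2 changed by 2.19 ± 0.26 (adjusted p = 3.05e-07) at day 3 and by 2.1004 ± 0.276 (adjusted p = 3.09e-06) at day 7. In MyS7KO it read 7.69, 7.36 and 5.85 at baseline, 30.3, 31.8, 20.9, 29.5 and 24.6 at day 3 and 25.9, 36.4, 18.3 and 19 at day 7. In MyS7KO Mcoln2 changed by 1.98 ± 0.259 (adjusted p = 1.05e-06) at day 3 and by 1.83 ± 0.265 (adjusted p = 1.13e-05) at day 7.

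Mcoln3 (chromosome 3, 146117450 to 146141806 in GRCm38) was close to absent at baseline, with 6 counts over the 3 S7fl/fl libraries and 3 over the 3 MyS7KO libraries. At day 3 it read 3.16, 1.68, 4.1, 4.63 and 4.63 CPM in S7fl/fl and 3.78, 2.53, 2.09, 3.24 and 3.48 in MyS7KO. At day 7 it read 6.79, 3.54 and 11.6 in S7fl/fl and 17.9, 18, 12.9 and 12 in MyS7KO. By summed counts relative to library size this was 39.6-fold higher at day 3 (95% interval 18 to 109) and 80.7-fold at day 7 (36.7 to 221) in S7fl/fl, and 58.2-fold (19.7 to 284) and 290.2-fold (99 to 1409) in MyS7KO. These exact binomial intervals cover counting error only. From day 3 to day 7 it rose in MyS7KO with no overlap of the libraries (log2 2.33 ± 0.29, adjusted p = 1.81e-06). In S7fl/fl that rise passed as well (log2 1.01 ± 0.31, adjusted p = 0.0221) but ended without day 3 replicate 2 (0.83, adjusted p = 0.0517), without day 7 replicate 2 (1.06, adjusted p = 0.0503) or without day 7 replicate 4 (0.51, adjusted p = 0.325), the last of which held its highest level. On log2(FPKM + 1), where low genes move less, the day 3 change from baseline was 0.97 in S7fl/fl. Per length it stayed the lowest of the 49 genes at day 3, at 1.04 FPKM.

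**Figure D3:**
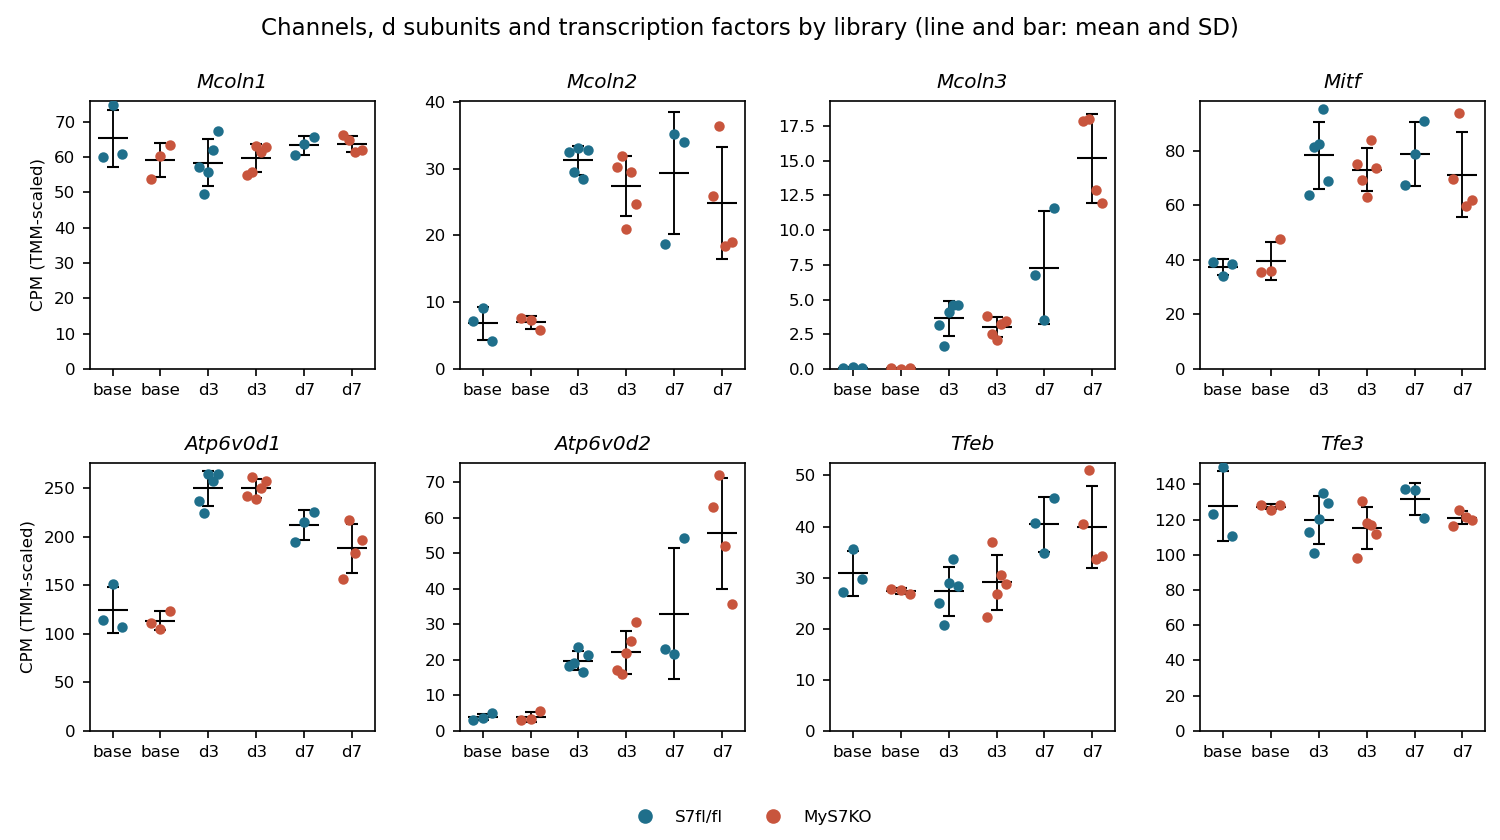
CPM by library (points) with mean and SD (line and bar) for the 3 mucolipin channels, both forms of the d subunit and the 3 transcription factors, in S7fl/fl (blue) and MyS7KO (red) cells at baseline (base), day 3 (d3) and day 7 (d7), each panel with its own axis from 0. Mcoln1 and Tfe3 stay level while Mcoln2, Mitf and both d subunits stand higher after the infarct. Mcoln3 goes from under 0.2 CPM at baseline to 11.98 to 18.02 in MyS7KO at day 7.

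Genes of lipid handling held the most abundant transcript of the set. Psap encodes prosaposin, which is cut into 4 saposins that present glycolipids to their hydrolases. It read 2715, 3585 and 2818 CPM at baseline, 9783, 8829, 11012, 10481 and 11351 at day 3 and 7597, 8368 and 13049 at day 7 in S7fl/fl. Psap changed by 1.76 ± 0.164 (adjusted p = 4.99e-09) at day 3 and by 1.67 ± 0.175 (adjusted p = 8.36e-08) at day 7. Day 7 replicate 4 stood above the other S7fl/fl libraries. Per length Psap was first among the 49 genes at baseline and at day 3, at 1096 and 3697 FPKM, with Lamp1 and Grn next in both. Npc1, the membrane protein that exports cholesterol from the lysosome, read 88.8, 74.3 and 75.6 CPM at baseline, 323, 312, 338, 304 and 245 at day 3 and 206, 271 and 250.01 at day 7. Npc1 changed by 1.94 ± 0.164 (adjusted p = 1.24e-09) at day 3 and by 1.61 ± 0.173 (adjusted p = 1.3e-07) at day 7. Lipa, the acid lipase that frees cholesterol from its esters, went from 170.1, 164 and 156 CPM to 541, 481, 589, 472 and 429 at day 3 and 404, 437 and 543 at day 7. Lipa changed by 1.62 ± 0.142 (adjusted p = 2.06e-09) at day 3 and by 1.4959 ± 0.152 (adjusted p = 5.43e-08) at day 7. Npc2, which hands cholesterol to NPC1, and Gm2a, the activator of GM2 ganglioside breakdown, rose at both times as well (0.71 ± 0.131 and 1.06 ± 0.145 for Npc2, 1.15 ± 0.126 and 0.88 ± 0.136 for Gm2a).

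The sphingolipid hydrolases moved differently. Smpd1, acid sphingomyelinase, fell from 26.1, 28.2 and 29.5 CPM to 21, 20.3, 19.7, 20.6 and 18.6 at day 3 with no overlap (log2 -0.48 ± 0.1, adjusted p = 0.000244), and in MyS7KO from 26.8, 28.3 and 29.7 to 18.1, 20.3, 18.7, 19.7 and 19.5 (log2 -0.55 ± 0.1, adjusted p = 4.73e-05). At day 7 it read 25.1, 18.3 and 24.7 in S7fl/fl (log2 -0.30 ± 0.113, adjusted p = 0.0329). That call, the only member called lower at day 7, ended without baseline replicate 1 (-0.29, adjusted p = 0.065), 2 (-0.29, 0.0692) or 3 (-0.25, 0.117), without day 7 replicate 3 (-0.16, 0.261), with no low-count filter (-0.26, 0.189) and in a fit of only the groups compared (-0.34, 0.0959). Asah1, acid ceramidase, did not pass at day 3 in S7fl/fl (log2 0.29 ± 0.152, adjusted p = 0.0963) and rose at day 7 (log2 0.62 ± 0.169, adjusted p = 0.00381). Without baseline replicate 1 or day 3 replicate 5 its day 3 change passed (0.43, adjusted p = 0.044, and 0.36, adjusted p = 0.0432).

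Of the 12 glycosidases and sulfatases 9 rose and 1 fell at day 3 in S7fl/fl (29.9% and 34.1% of all genes), and 10 rose at day 7 (24.8%). Galns, the sulfatase that acts on keratan sulfate and chondroitin sulfate (chromosome 8, 122578242 to 122611463 in GRCm38), changed most: it read 10.5, 12.6 and 9.7 CPM at baseline, 90.6, 80.7, 91.4, 82.9 and 90.8 at day 3 and 65, 78.5 and 84.9 at day 7 in S7fl/fl. Galns changed by 3.00 ± 0.129 (adjusted p = 4.16e-14) at day 3 and by 2.80 ± 0.134 (adjusted p = 5.96e-13) at day 7. In MyS7KO it read 12.6, 9.98 and 12.2 at baseline, 92.5, 91, 86.5, 90.1 and 97 at day 3 and 68, 90.7, 65.3 and 80.4 at day 7. In MyS7KO Galns changed by 2.97 ± 0.129 (adjusted p = 5.95e-14) at day 3 and by 2.71 ± 0.13 (adjusted p = 9.42e-13) at day 7. In each genotype the lowest later library was over 5 times the highest baseline library. Gusb, beta-glucuronidase, read 215, 215 and 200.7 CPM at baseline, 588, 558, 590.4, 521 and 578 at day 3 and 555, 553 and 587 at day 7. Gusb changed by 1.43 ± 0.0986 (adjusted p = 5.28e-11) at day 3 and by 1.43 ± 0.106 (adjusted p = 4.56e-10) at day 7. Naglu, which trims heparan sulfate, read 27.3, 31.1 and 30.7 CPM at baseline, 107, 79.6, 101, 79.4 and 95.5 at day 3 and 88.8, 91.2 and 116 at day 7. Naglu changed by 1.64 ± 0.129 (adjusted p = 3.74e-10) at day 3 and by 1.73 ± 0.139 (adjusted p = 1.46e-09) at day 7.

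The sulfatases did not move as a set. Ids, iduronate-2-sulfatase, fell at day 3, from 97.3, 91.5 and 80.2 CPM to 72.2, 68.2, 74.9, 67.3 and 59.5 in S7fl/fl (log2 -0.39 ± 0.0927, adjusted p = 0.000831) and from 101, 101 and 99.96 to 68.4, 64.2, 57.7, 66.7 and 64.4 in MyS7KO (log2 -0.64 ± 0.0922, adjusted p = 2.37e-06). Idua, which acts on the same glycans one step later, rose (0.53 ± 0.0915 at day 3 and 0.55 ± 0.101 at day 7 in S7fl/fl). Man2b1, the lysosomal alpha-mannosidase, was late: it read 578, 583 and 499 CPM at baseline, 603, 602, 557, 565 and 524 at day 3 and 901, 867 and 899 at day 7, so day 7 stood apart from both (log2 0.04 ± 0.0997, adjusted p = 0.718 at day 3, and log2 0.64 ± 0.0981, adjusted p = 5.94e-05 from day 3 to day 7). The same order was seen in MyS7KO (-0.07 ± 0.0994 at day 3, and log2 0.72 ± 0.0911, adjusted p = 1.98e-06 from day 3 to day 7). Neu1, the sialidase, read 153, 182 and 154 CPM at baseline and 146, 139, 155, 154 and 165 at day 3 and was not called (log2 -0.10 ± 0.107, adjusted p = 0.403).

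Grn, Ppt1 and Tpp1 rose at day 3 in both genotypes. Grn encodes progranulin, a secreted and lysosomal glycoprotein. It read 715, 1193 and 688 CPM at baseline, with replicate 2 the highest, 2394, 1969, 2519, 2344 and 2712 at day 3 and 2035, 2463 and 2194 at day 7 in S7fl/fl. Grn changed by 1.46 ± 0.164 (adjusted p = 7.4e-08) at day 3 and by 1.37 ± 0.176 (adjusted p = 1.47e-06) at day 7. In MyS7KO it fell from 2220.4, 2772, 2678, 2368 and 2466 at day 3 to 1536, 1909, 1599 and 2149.9 at day 7 (log2 -0.48 ± 0.143, adjusted p = 0.0104), still above the baseline levels of 731, 773 and 706. Ppt1, the thioesterase that removes palmitate from proteins, went from 138, 129 and 129 CPM to 233, 280.5, 252, 239.9 and 205 at day 3 and 241, 238 and 258 at day 7 in S7fl/fl. Ppt1 changed by 0.87 ± 0.117 (adjusted p = 9.93e-07) at day 3 and by 0.90 ± 0.128 (adjusted p = 5.64e-06) at day 7. Tpp1, the tripeptidyl peptidase, rose less (0.64 ± 0.122 and 0.57 ± 0.134 in S7fl/fl), and in MyS7KO it passed at day 3 (log2 0.29 ± 0.121, adjusted p = 0.0356) but not at day 7 (log2 0.31 ± 0.126, adjusted p = 0.0503). Its MyS7KO day 3 call ended without baseline replicate 1 (0.28, adjusted p = 0.0975) or 2 (0.27, 0.106), and without day 3 replicate 1 (0.24, 0.0886), 4 (0.29, 0.0551) or 5 (0.29, 0.0548). Its MyS7KO day 7 change passed without baseline replicate 3 (0.43, adjusted p = 0.0153) or day 7 replicate 4 (0.36, 0.0306), and with no low-count filter (0.34, 0.0361) or sex as a covariate (0.38, 0.0342).

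The transcription factors of the family differed from each other. Mitf rose, with 39.4, 34 and 38.6 CPM at baseline, 63.7, 81.5, 82.5, 95.3 and 69.1 at day 3 and 67.4, 78.8 and 90.9 at day 7 in S7fl/fl, by 1.07 ± 0.155 (adjusted p = 2.96e-06) and 1.08 ± 0.169 (adjusted p = 1.69e-05). In MyS7KO it went from 35.4, 35.8 and 47.6 to 75.2, 69.5, 63, 84.1 and 73.8 at day 3 and 69.7, 94, 59.7 and 61.8 at day 7, by 0.88 ± 0.154 (adjusted p = 2.95e-05) and 0.85 ± 0.159 (adjusted p = 0.00018). Every later library lay above every baseline library of its genotype. Tfe3 read 123, 149.7 and 110.4 CPM at baseline, 113, 101, 120.3, 135 and 129 at day 3 and 138, 137 and 121 at day 7 in S7fl/fl, with overlap throughout. Tfe3 differed from baseline by -0.09 ± 0.103 (adjusted p = 0.446) at day 3 and 0.05 ± 0.115 (adjusted p = 0.763) at day 7. Tfeb read 27.1, 35.6 and 29.7 CPM at baseline, 25, 20.7, 28.9, 33.6 and 28.4 at day 3 and 40.7, 34.9 and 45.7 at day 7 in S7fl/fl. It was not called at day 3 (log2 -0.17 ± 0.16, adjusted p = 0.353) or day 7 (log2 0.39 ± 0.178, adjusted p = 0.0705) against baseline, but rose from day 3 to day 7 (log2 0.57 ± 0.158, adjusted p = 0.0122). Without baseline replicate 2 or day 7 replicate 3 the day 7 change from baseline passed (0.51, adjusted p = 0.0391, and 0.49, adjusted p = 0.0472), and without day 7 replicate 4 the rise from day 3 did not (0.47, adjusted p = 0.0827). With sex as a covariate the day 7 change from baseline was 0.56 (adjusted p = 0.0128).

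In MyS7KO Tfeb read 27.8, 27.5 and 26.8 CPM at baseline, 22.3, 37, 26.8, 30.5 and 28.8 at day 3 and 40.5, 51, 33.7 and 34.3 at day 7. It rose at day 7 against baseline (log2 0.54 ± 0.169, adjusted p = 0.0123) and against day 3 (log2 0.46 ± 0.146, adjusted p = 0.0159), and both calls ended without day 7 replicate 3, which held the highest level (0.40, adjusted p = 0.0586, and 0.32, adjusted p = 0.0918). With sex as a covariate the change from baseline was 0.37 (adjusted p = 0.0889). These are levels of RNA, and where the proteins lay in the cell was not measured. Per length Tfe3 was the most abundant of these factors at baseline, at 13.7 FPKM, with Mitf at 5.96 and Tfeb at 5.38, whose libraries overlapped (5.45 to 6.34 and 4.78 to 6.25). At day 3 Tfe3 (12.7 FPKM) and Mitf (12.5) overlapped, and Tfeb read 4.75.

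Other genes of the same organelle, from lists of 65 genes outside the 49 of which 60 were tested, also rose for the most part. These lists too were chosen with earlier results of these data known, so they are no independent support for the rise of the 49. In S7fl/fl 41 rose and 9 fell at day 3 (29.9% and 34.1% of all genes), with a median of 0.76. At day 7 41 rose and 5 fell (24.8% and 25.4% of all genes), with a median of 0.73. In MyS7KO 41 rose and 12 fell at day 3 (30.7% and 35.2% of all genes), and 41 rose and 4 fell at day 7 (22.2% and 21.8%). Tcirg1, the a3 subunit of the pump found in osteoclasts and macrophages, read 240.1 ± 26.3 CPM at baseline, 729 ± 40.7 at day 3 and 807 ± 136 at day 7 (SD, n = 3, 5 and 3). Tcirg1 rose by 1.60 ± 0.124 (adjusted p = 3.04e-10) at day 3 and 1.75 ± 0.134 (adjusted p = 6.79e-10) at day 7. Atp6v0e2, a minor form of the e subunit, fell by summed counts, 13.8-fold at day 3 (95% interval 9.28 to 21.3) and 19.5-fold at day 7 (11 to 38.2), from 4.57 ± 1.35 CPM. Of 20 other hydrolases 16 rose and 2 fell at day 3 in S7fl/fl (29.9% and 34.1% of all genes). Acp5, tartrate-resistant acid phosphatase, read 27.6 ± 5.79, 117 ± 15.1 and 122 ± 18.6 CPM and rose by 2.08 ± 0.156 (adjusted p = 1.96e-10) and 2.14 ± 0.166 (adjusted p = 9.02e-10).

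Of 13 other membrane proteins tested 8 rose and 3 fell at day 3 in S7fl/fl (29.9% and 34.1% of all genes). Those that rose included Cd68, a macrophage relative of Lamp1 (log2 1.59 ± 0.126, adjusted p = 4.57e-10), and Tpcn2, a channel of the endolysosome (log2 1.61 ± 0.127, adjusted p = 3.99e-10). Of 7 genes that sort enzymes to the lysosome 6 rose at day 3, led by Gnptab, whose product starts the mannose 6-phosphate tag (log2 1.95 ± 0.152, adjusted p = 3.28e-10), and M6pr, a receptor of that tag (log2 1.29 ± 0.113, adjusted p = 2.02e-09). Of 14 genes that control the location of TFEB and TFE3 8 rose and 2 fell at day 3. Fnip2, a partner of folliculin, read 52.2 ± 6.17 CPM at baseline, 346 ± 42.7 at day 3 and 289 ± 118 at day 7 and rose by 2.73 ± 0.303 (adjusted p = 2.05e-07) and 2.47 ± 0.315 (adjusted p = 3.2e-06). Lamtor1, which anchors the Ragulator complex to the lysosome, rose as well (log2 1.00 ± 0.116, adjusted p = 1.25e-07). No gene of these lists was called between the genotypes.

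None of the 49 genes differed between MyS7KO and S7fl/fl cells by a called change. At baseline, day 3 and day 7 none rose and none fell between MyS7KO and S7fl/fl by edgeR (0.0121%, 0.0121% and 0.0181% of all genes tested were called), nor did DESeq2 or any other fit tried call one. At an unadjusted p under 0.05 stood 0, 0 and 6 of the 49, and 375, 594 and 2173 of all 16545 genes. The 3 tests of whether the genotype difference changed between times called none either (0% of all genes). From baseline to day 3, from baseline to day 7 and from day 3 to day 7, 0, 0 and 4 of the 49 had an unadjusted p under 0.05. Of all 16545 genes 741, 862 and 1726 had such a p. Leaving out Mcoln3, the log2 differences ran from -0.23 (Grn) to 0.26 (Tpp1) at baseline, from -0.19 (Mcoln2) to 0.16 (Atp6v0d2) at day 3 and from -0.38 (Atp6v1f) to 0.75 (Atp6v0d2) at day 7. A missed threshold does not show that the genotypes were alike: the median standard errors were 0.132, 0.102 and 0.122.

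The genes with the lowest p-values in these comparisons are given as values that did not pass. At baseline Tpp1 read 197, 173 and 188 CPM in S7fl/fl and 206, 204 and 259 in MyS7KO (log2 0.26 ± 0.134, adjusted p = 0.999). Cln3 read 59.7, 61.5 and 60.5 in S7fl/fl and 62.3, 69.9 and 68.2 in MyS7KO (log2 0.14 ± 0.0852, adjusted p = 0.999). Ids read 97.3, 91.5 and 80.2 in S7fl/fl and 101, 101 and 99.96 in MyS7KO (log2 0.16 ± 0.104, adjusted p = 0.999). These 3 genes had no overlap between the genotypes, as had 6.2% of all genes tested. At day 3 Naglu, Atp6v1c1 and Npc1 differed by 0.13 ± 0.104, 0.12 ± 0.0973 and -0.16 ± 0.131, each with an adjusted p of 0.982 and overlapping libraries. At day 7 Mcoln3 read 6.79, 3.54 and 11.6 CPM in S7fl/fl and 17.9, 18, 12.9 and 12 in MyS7KO, with no overlap (log2 1.05 ± 0.324, adjusted p = 0.27). Atp6v1f, a stalk subunit, read 118, 129 and 136 in S7fl/fl and 80, 104, 95.5 and 112 in MyS7KO, also without overlap (log2 -0.38 ± 0.15, adjusted p = 0.33). Of the 49 genes 2 stood higher and 1 lower in MyS7KO without overlap at day 7. Of all genes tested 8.9% had no overlap. Atp6v1h read 87, 115 and 110.2 in S7fl/fl and 74.9, 103, 81.6 and 91.5 in MyS7KO, which overlapped (log2 -0.25 ± 0.102, adjusted p = 0.332).

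Mcoln3, Atp6v1f and Atp6v1g1 had the lowest p-values for a genotype difference that shifted from day 3 to day 7 (log2 1.32 ± 0.43, adjusted p = 0.416, log2 -0.49 ± 0.195, adjusted p = 0.447, and log2 -0.42 ± 0.179, adjusted p = 0.453). From baseline to day 3 the lowest were those of Tpp1 (-0.35 ± 0.169), Ids (-0.25 ± 0.132) and Npc1 (-0.40 ± 0.214), each with an adjusted p of 0.878. From baseline to day 7 they were those of Idua (0.28 ± 0.138), Cln3 (-0.23 ± 0.117) and Atp6v0c (-0.25 ± 0.152), each with an adjusted p of 0.877. At day 7 the summed level of fibroblast markers was 1286 to 3401 CPM in S7fl/fl and 1775 to 5088 in MyS7KO libraries, that of endothelial markers 272 to 563 and 204 to 1323, and that of mural markers 76.4 to 234 and 61.4 to 499. All 8 fibroblast, 7 endothelial and 5 mural markers had higher fitted levels in MyS7KO (median log2 0.73, 0.87 and 1.15). The edgeR test called 0 of them, and 1, 2 and 3 had an unadjusted p under 0.05. Their part in these differences was not tested. A term for sex, fitted over all 23 libraries, was called for 0 of the 49 genes and for 13 of all genes. Tfe3, Atp6v0a1, Tfeb and Laptm5 had an unadjusted p under 0.05 for it. Each day 7 group was of a single sex, so the size of this term was set by baseline and day 3 libraries alone. It cannot tell sex from genotype at day 7.

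**Figure D4:**
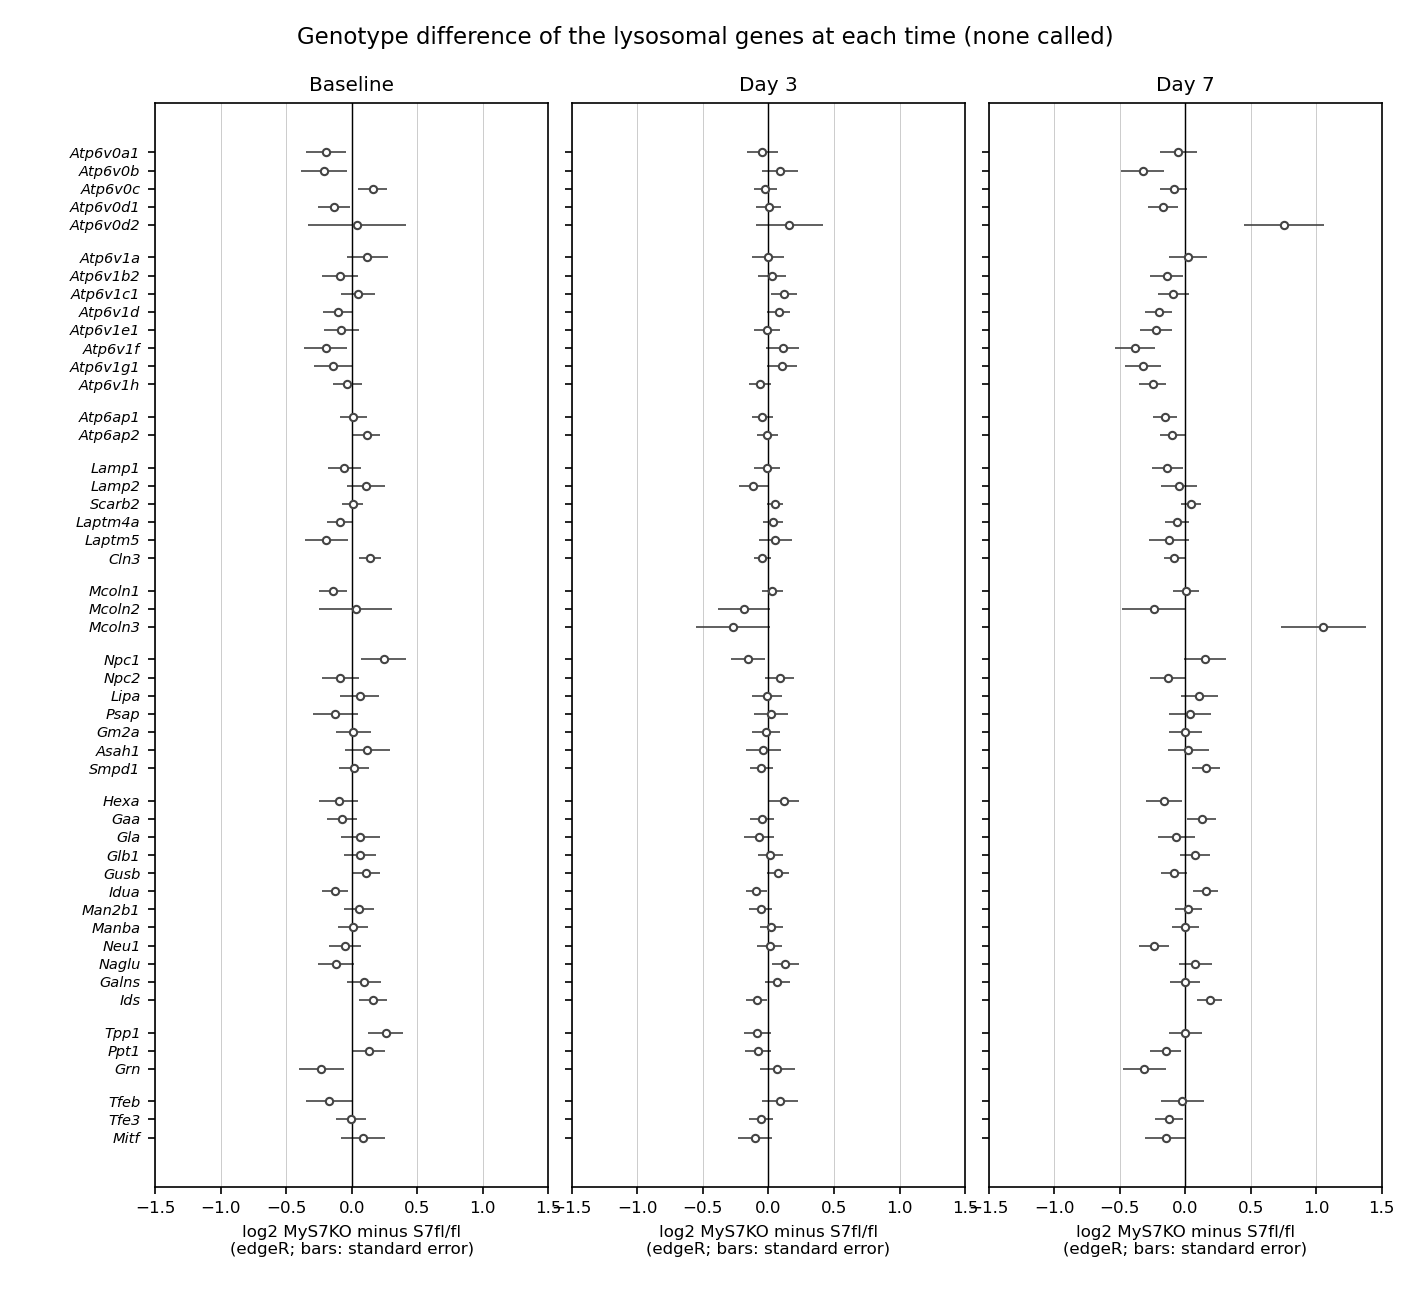
Log2 difference of MyS7KO minus S7fl/fl for each gene (rows, grouped by role) at baseline, day 3 and day 7, with standard errors as bars. Open points did not pass an adjusted p under 0.05, which is all of them, and Mcoln3 is left blank at baseline, where its libraries held 0 to 2 counts. Mcoln3 at day 7, 1.05, is the point farthest to the right.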

How the data were processed

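RNA of 23 samples was sequenced. The authors deposited a table with raw read counts and FPKM values per gene, and per the submitters' processing notes the tools were TopHat2 2.0.9, HTSeq 0.6.1 and Cufflinks 2.1.1 with builds mm10 and GRCm38.p6. The deposited FPKM equalled count per gene length times a constant of each library, within 1% for 100% of 10088 genes, and was used for levels per length. Whether counting used strand is not given in the sources used here. Groups came from the sample labels, and no other columns of per-sample values were present (0).

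Counts were tested with edgeR 4.0.16 (R 4.3.3): low-count filtering by group, TMM scaling, a robust quasi-likelihood fit with 1 coefficient per group over all 23 libraries, and Benjamini-Hochberg adjustment over 16545 genes. Ratios of genes with few counts carry exact 95% binomial intervals. Also tried were DESeq2 1.42.0, RLE scaling in edgeR, a fit without the low-count filter, a fit of only the groups compared, limma 3.58.1 on log2(FPKM + 1) and log2(FPKM + 0.1), a replicate block, sex as a covariate, leaving out 2 libraries with reads of both sexes, and leaving out each library. In each role group the 2 called genes with the lowest p per direction were named, in each genotype comparison the 3 lowest p-values, and always the 3 transcription factors, 3 channels and both d subunits. Further genes were named after their values were seen. A gene that the rule picked among the related hydrolases is not reported here. The 49 genes and all lists were chosen with earlier results of these data known.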

Additional observations from a re-analysis of the deposited data

Results flagged for a closer look

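In groups of 4 or 5 libraries, 4 of 147 pairs of gene and group (2.72%) held a library far from the others by Dixon's criterion, which chance meets in about 1 in 20 groups. All 4 were pump genes in MyS7KO. Atp6v0c at day 3 had its lowest level, 161 CPM, in replicate 3, against 190.3 to 196 in the other libraries. Atp6v1h at day 3 had its highest, 159 CPM, in replicate 5, against 139.8 to 142. Atp6v1a at day 7 had its highest, 734 CPM, in replicate 3, against 494 to 531. Atp6v1d at day 7 had its lowest, 96.0 CPM, in replicate 1, against 117 to 119.7.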

How the results depend on the processing

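Of 460 recomputed counts of called genes, 452 stayed within 1.5 times the reported count. A count of 0 that stayed 0 was taken as unchanged. That covers every count between the genotypes and every count for a genotype difference that shifted with time, so 452 says little of those. No called change of the 49 genes turned its direction in any alternative. The gene called lower at day 7 in S7fl/fl, 1 in number, became 0 with no low-count filter and in a fit of only the groups compared, and 0 to 1 when single libraries were left out. From day 3 to day 7 in S7fl/fl, leaving out single libraries gave 2 to 9 genes higher and 1 to 2 lower. The reported changes held in every alternative for 41 of 43 calls at day 3 and 37 of 42 at day 7 in S7fl/fl, and for 3 of 8 from day 3 to day 7. In MyS7KO they held for 39 of 41, 34 of 38 and 15 of 23. Apart from the settings named beside each gene, the cause of lost calls was not tested.

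Changes near 0, none of them called, turned sign. With sex as a covariate these were Mcoln1 at day 7 in S7fl/fl (0.0113), Mcoln1 at day 3 in MyS7KO (-0.0127) and Tfe3 from day 3 to day 7 in MyS7KO (-0.0014). Without the libraries of mixed sex Mcoln1 at day 3 in MyS7KO was -0.0099. Leaving out single libraries gave, in S7fl/fl, Tfe3 -0.184 to 0.0391 at day 3, Tfe3 -0.0451 to 0.178 and Mcoln1 -0.0859 to 0.0663 at day 7, and Mcoln2 -0.246 to 0.145 and Mitf -0.101 to 0.115 from day 3 to day 7. In MyS7KO it gave Tfeb -0.0175 to 0.168 and Mcoln1 -0.0129 to 0.0649 at day 3, and Mitf -0.198 to 0.0398 from day 3 to day 7.

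Replicate numbers did not pair the libraries: over 10 pairs the correlation of deviations ran from -0.38 to 0.309, and 4 of the 10 correlated best with their own number. With the replicate block 40 genes rose and 3 fell at day 3 in S7fl/fl, 40 and 1 at day 7, and 5 and 2 from day 3 to day 7. In MyS7KO the block gave 38 and 3, 38 and 0, and 11 and 12. Under the block Mitf from day 3 to day 7 in S7fl/fl (-0.0476) and Mcoln1 at day 3 in MyS7KO (-0.0301) turned sign.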
